A study of Homo sapiens with 9 samples.

Results

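The S100 genes described here are 10 of the 61487 genes in a count table of OVCAR4 cells, namely S100A2, S100A4, S100A6, S100A8, S100A9, S100A10, S100A11, S100A14, S100A16 and S100P. They were taken by gene symbol through the Ensembl identifiers of the table, and the other 11 S100 genes are given where they bear on them. OVCAR4 is an established human line of high-grade serous ovarian cancer, and the study used it to ask what accompanies acquired resistance to platinum (Pt) and what inhibition of the arginine methyltransferase PRMT5 does in resistant cells. The groups were Pt-resistant cells under EPZ015666, a small-molecule PRMT5 inhibitor, at 5 uM for 5 days, Pt-resistant cells under DMSO, the solvent, and naive cells under DMSO, with 3 libraries each and no engineered allele (genotype WT in the labels). The Pt-resistant cells are a derivative of OVCAR4 kept under Pt, so they stand for a resistant state of this line alone, and naive cells under the inhibitor were not among the 9 libraries. Replicates were separate wells of a plate, and p-values therefore cover variation from well to well, possibly technical.

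S100 proteins are small calcium-binding proteins built from a pair of EF-hand motifs, and most work as dimers. On binding calcium most of them expose a surface that grips a target protein, such as an annexin, a myosin heavy chain or a co-chaperone, and some are also secreted and bind the receptors RAGE (gene AGER) and TLR4. Most S100 genes lie in a cluster on the long arm of chromosome 1, together with the genes of the epidermal cornified envelope, and several are used as tissue markers of epithelial tumours. The cluster holds 9 of the members, in the order S100A10, S100A11, S100A9, S100A8, S100A6, S100A4, S100A2, S100A16 and S100A14 by RefSeq start, and S100P lies on chromosome 4. S100A10 and S100A11 lie at a distance from the rest.

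Promoter sequences are shown for the 4 members the results turn on: S100A9, S100A4 and S100P, the members with the largest falls in Pt-resistant cells, and S100A6, the member that rose there. They are RefSeq windows of build GRCh38.p14, 250 bases before to 50 bases after the annotated start, written 5′ to 3′ on the strand of the gene. All 10 members matched the RefSeq table by symbol. S100A9 is at chr1:153357604-153357903 on the plus strand, S100A4 at chr1:153545757-153546056 and S100A6 at chr1:153535942-153536241 on the minus strand, and S100P at chr4:6693628-6693927 on the plus strand. Capitals mark matches, on either strand, to 6 motifs: the TATA box TATAAA, the GC box GGGCGG, the E-box CACCTG, the AP-1 element TGANTCA, the C/EBP element TTGCNNAA and the antioxidant response element TGANNNNGC, where N is any base and an AP-1 match can lie inside one to the antioxidant element.
S100A9: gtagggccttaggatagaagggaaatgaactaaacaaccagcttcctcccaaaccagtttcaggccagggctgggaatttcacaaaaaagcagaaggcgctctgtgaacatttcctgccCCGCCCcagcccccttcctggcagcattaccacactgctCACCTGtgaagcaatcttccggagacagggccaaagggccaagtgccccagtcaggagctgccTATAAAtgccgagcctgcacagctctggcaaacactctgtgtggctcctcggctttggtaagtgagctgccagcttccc
S100A4: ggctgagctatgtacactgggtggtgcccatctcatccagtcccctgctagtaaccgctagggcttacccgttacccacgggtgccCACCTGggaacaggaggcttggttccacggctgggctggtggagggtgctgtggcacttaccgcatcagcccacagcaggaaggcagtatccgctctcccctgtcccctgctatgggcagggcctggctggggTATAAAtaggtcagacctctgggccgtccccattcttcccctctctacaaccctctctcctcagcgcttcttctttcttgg
S100P: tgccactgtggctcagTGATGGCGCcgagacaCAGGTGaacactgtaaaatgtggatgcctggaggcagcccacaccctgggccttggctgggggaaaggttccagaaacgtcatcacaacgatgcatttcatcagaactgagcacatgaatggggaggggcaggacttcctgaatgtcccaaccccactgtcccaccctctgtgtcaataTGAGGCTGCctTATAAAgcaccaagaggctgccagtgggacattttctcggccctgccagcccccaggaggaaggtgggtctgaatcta
S100A6: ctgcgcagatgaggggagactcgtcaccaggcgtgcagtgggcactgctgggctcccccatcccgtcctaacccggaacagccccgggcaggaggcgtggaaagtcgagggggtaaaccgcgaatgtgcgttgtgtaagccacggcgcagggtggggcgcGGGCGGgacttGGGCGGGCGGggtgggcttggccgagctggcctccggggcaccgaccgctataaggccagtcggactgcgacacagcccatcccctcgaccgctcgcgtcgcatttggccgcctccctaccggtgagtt

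The TATA box began 29 bases before the start of S100A9, 31 before that of S100A4 and 28 before that of S100P, and it was matched in 11.5% of all 35116 promoters of this length in the table. The windows of S100A9, S100A4 and S100P also held the E-box, which 20.6% of promoters held. S100A6 had neither, and had 3 matches to the GC box, which 45.0% of promoters held and which S100A9 matched at a single place. No AP-1 or C/EBP match (7.71% and 10.5% of promoters) lay in these 4 windows, and the antioxidant element (41.8%) was matched in that of S100P alone. Outside these windows, the E-box was also matched in windows of S100A2, S100A8, S100A14 and S100A16, and the TATA box in windows of S100A8. Both were matched in that of S100Z, a gene that was higher in Pt-resistant cells. Neither motif is thus particular to the members that fell. These are matches of letters in a window and not measured sites.

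Total counts were 14320929 to 19114811 per library. Of all genes, 14630 passed the filter on low counts, which 9 of the 10 members and 4 of the other S100 genes passed. Values are in CPM, counts scaled to a common library total, and a gene is called where the adjusted p of edgeR's quasi-likelihood test over all 14630 genes is under 0.05. PRMT5 itself stood at 117 ± 11 CPM in inhibitor-treated, 117 ± 10 CPM in Pt-resistant and 121 ± 1.5 CPM in naive cells (SD, n = 3) and was called in no comparison. All 9 epithelial markers were tested. Their sum was 3274 to 3362 CPM in inhibitor-treated, 4005 to 4210 CPM in Pt-resistant and 4351 to 4707 CPM in naive libraries. KRT7 was the largest part, at 1638, 2333 and 1929 CPM in these groups. CDH1 averaged 50.6, 74.2 and 167.5 CPM in the same groups. In Pt-resistant against naive cells 1 marker (KRT7) was called higher and 7 lower. With the inhibitor 1 was higher and 6 lower, and in treated against naive cells 0 were higher and 9 lower. Over all genes, 29.8% to 32.2% were called higher and 29.4% to 31.2% lower in these comparisons. The 7 serous ovarian markers summed to 424.8 to 479.6 CPM in inhibitor-treated, 449.7 to 538.6 CPM in Pt-resistant and 529.5 to 579.0 CPM in naive libraries. SOX17 and PAX8 led the serous list, at 170.7 and 144.2 CPM in inhibitor-treated cells, and WT1 alone of its genes was near absent, with no more than 17 counts in any group. Mitochondrially encoded mRNAs took 7.37 ± 1.0% of counts in inhibitor-treated, 4.80 ± 0.37% in Pt-resistant and 7.12 ± 1.0% in naive cells. This share moved with S100A9, S100A2 and S100P, and its part in their differences was not tested.

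In Pt-resistant against naive cells, 1 member (S100A6) was higher and 4 (S100A4, S100A9, S100P and S100A2) were lower, of 9 tested. Over all genes, 29.8% were called higher and 29.4% lower in this comparison. With the inhibitor against DMSO in Pt-resistant cells, 5 members (S100A9, S100P, S100A2, S100A11 and S100A16) were higher and 0 lower, where 31.9% of all genes were called higher and 30.5% lower. All 9 tested members had fold changes above 0 there, so none was lower at an unadjusted p under 0.05 either, nor by DESeq2 or limma-voom. In inhibitor-treated Pt-resistant against naive cells, 5 members (S100A9, S100A6, S100A11, S100A2 and S100A16) were higher and 1 (S100A4) lower, where 32.2% of all genes were called higher and 31.2% lower. These counts include S100P, whose Pt-resistant libraries lay below the level of the filter on low counts. The count of 5 in treated against naive cells was 3 without naive replicate 2, and also 3 without treated replicate 1. The median log2 fold change of the tested members was -0.19, 0.29 and 0.24 in these comparisons, taken in the order given, beside 0.01, 0.0057 and 0.00094 over all genes. The comparisons share their libraries pairwise, so they are not independent of each other.

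**Figure D1:**
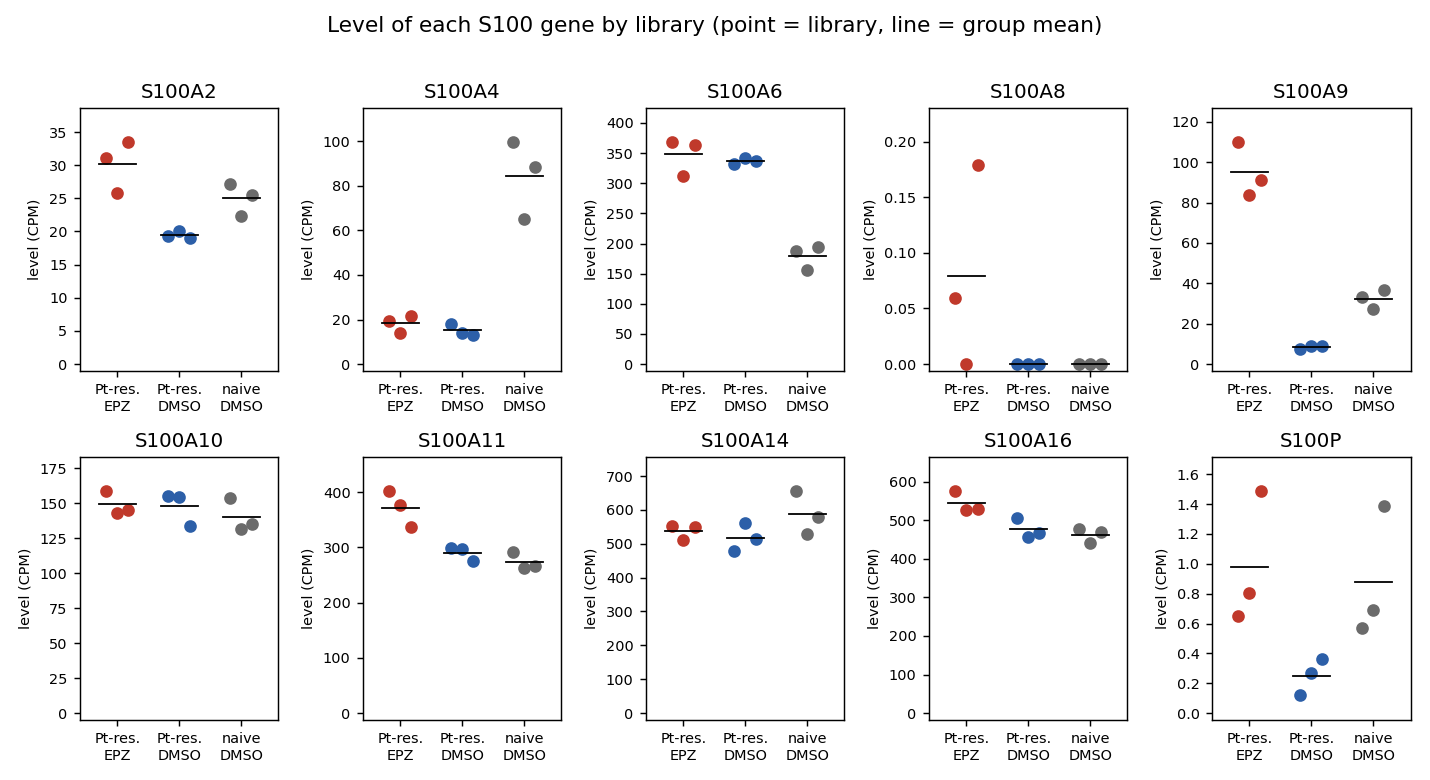
Level of each of the 10 members in CPM (y axis, from 0) in the 9 libraries, by group (x axis: Pt-resistant with EPZ015666, Pt-resistant with DMSO, naive with DMSO), where points are libraries and lines are group means. S100A9 lies at 83.7 to 110.2 CPM in treated, 7.63 to 8.78 CPM in Pt-resistant and 27.5 to 36.7 CPM in naive libraries, while S100A10 overlaps between all groups.

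S100A9 (ENSG00000163220) had the largest difference of any member. With S100A8 its protein forms calprotectin, the secreted heterodimer that is abundant in neutrophils and monocytes and is also induced in stressed keratinocytes. S100A9 stood at 110.2, 83.7 and 91.4 CPM in inhibitor-treated libraries, 7.63, 8.78 and 8.78 CPM in Pt-resistant libraries and 33.2, 27.5 and 36.7 CPM in naive libraries. The groups did not overlap, and the Pt-resistant libraries were the lowest. With the inhibitor S100A9 was 11.3-fold higher than under DMSO (log2 fold change 3.50 ± 0.12, SE, adjusted p = 1.44e-16), a rise that 92 of the 14630 genes exceeded. In Pt-resistant against naive cells it was 3.86-fold lower (log2 fold change -1.95 ± 0.12, adjusted p = 4.64e-12). Treated cells were not back at the naive level but 2.93-fold above it (log2 fold change 1.55 ± 0.11, adjusted p = 9.62e-12). In a bulk sample, more cells that express a gene and more RNA per cell cannot be told apart.

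S100A8 (ENSG00000143546), the partner of S100A9 in calprotectin, was nearly absent from the same libraries. It had 1, 0 and 3 counts in the treated libraries and 0 counts in each Pt-resistant and naive library. Over the treated group its 4 counts stood beside 4648 counts of S100A9. That is 0.0822 CPM with an exact Poisson 95% interval of 0.0224 to 0.211 CPM, and the same interval reaches up to 0.0675 CPM over the Pt-resistant and 0.0768 CPM over the naive group, where a floor of 3 counts is 0.0549 and 0.0625 CPM (counting error only). S100A12, the third calgranulin, which lies between S100A9 and S100A8 on chromosome 1, had 0, 2 and 0 counts over the treated, Pt-resistant and naive groups. S100A9 thus rose while S100A8 and S100A12 stayed at or near 0 counts.

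Because S100A9 is a marker of myeloid cells, the other immune markers were read beside it. The 11 markers summed to 6.02 to 7.93 CPM in treated, 0.842 to 1.04 CPM in Pt-resistant and 3.30 to 4.89 CPM in naive libraries. Their sum thus moved with S100A9 and lay below it in each group. PTPRC, the pan-leukocyte CD45, had 53, 2 and 14 counts over the treated, Pt-resistant and naive groups, CD14 had 60, 15 and 7, and CSF1R had 118, 11 and 40. Each of these reached the filter on low counts only through the groups where it was high, so their calls are not counted here. MPO, of granulocytes, and FCGR3A, the Fc receptor CD16a, were at 0 in every library, and CSF3R was at 0 in treated and naive cells. The 8 squamous markers, read for the same reason in an epithelial line, summed to 7.64 to 8.22 CPM in treated, 0.987 to 1.60 CPM in Pt-resistant and 3.46 to 4.26 CPM in naive libraries. This sum likewise moved with S100A9, though not every marker did. KRT13 had 212, 49 and 108 counts and KRT6A 115, 2 and 33 counts over the treated, Pt-resistant and naive groups, while IVL and SPRR1B were at 0 throughout. KRT5, with 8, 0 and 15 counts, and KRT16, with 10, 4 and 15, were highest in naive cells. TP63 had 37, 15 and 12 counts in the same order. The part of either list in the difference of S100A9 was not tested.

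S100A4 (ENSG00000196154), also known as metastasin, binds the heavy chain of non-muscle myosin IIA and is a familiar marker of motile and mesenchymal cells. It stood at 19.2, 14.1 and 21.7 CPM in inhibitor-treated libraries, 17.9, 14.1 and 13.2 CPM in Pt-resistant libraries and 99.8, 65.3 and 88.3 CPM in naive libraries. Every naive library was above every Pt-resistant one, treated or not. In Pt-resistant against naive cells S100A4 was 5.63-fold lower (log2 fold change -2.49 ± 0.15, adjusted p = 9.35e-13), the largest fall among the members. The inhibitor left it near that level, at a log2 fold change of 0.29 ± 0.16 against DMSO that did not pass (adjusted p = 0.107). That value passed in 4 of 17 alternative analyses, with an adjusted p from 0.0186 to 0.454. Treated cells remained 4.60-fold below naive cells (log2 fold change -2.20 ± 0.14, adjusted p = 4.03e-12).

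S100A3, a non-member next to S100A4 on the chromosome and best known from the hair cuticle, overlaps S100A4 on the same strand, so reads within the overlap cannot be assigned to either. S100A3 had 3.79, 3.67 and 4.11 CPM in treated, 1.20, 1.65 and 0.935 CPM in Pt-resistant and 5.17, 5.16 and 6.11 CPM in naive libraries. It fell with S100A4 in Pt-resistant against naive cells (log2 fold change -2.11 ± 0.21, adjusted p = 1.14e-08). Unlike the value of S100A4, that of S100A3 passed with the inhibitor (log2 fold change 1.61 ± 0.22, adjusted p = 1.36e-06). The difference between the 2 genes in their response was not tested. S100A5, on the other side of S100A4, had 23, 9 and 24 counts over the treated, Pt-resistant and naive groups and was too low to test.

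S100A6 (ENSG00000197956), or calcyclin, is found in many proliferating and epithelial cells and binds the ubiquitin-ligase adaptor CACYBP. It stood at 368.9, 312.6 and 362.7 CPM in inhibitor-treated libraries, 332.0, 342.6 and 337.6 CPM in Pt-resistant libraries and 188.3, 156.8 and 194.0 CPM in naive libraries. Treated and untreated Pt-resistant libraries overlapped, and all of them lay above the naive ones. S100A6 was 1.88-fold higher in Pt-resistant than in naive cells (log2 fold change 0.91 ± 0.086, adjusted p = 3.8e-09). With the inhibitor its log2 fold change was 0.045 ± 0.085 (adjusted p = 0.664), and against naive cells the treated ones were 1.94-fold higher (adjusted p = 1.21e-09). It lies 2 places from S100A4 in the cluster, with S100A5 between them, and moved the opposite way in Pt-resistant cells.

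**Figure D2:**
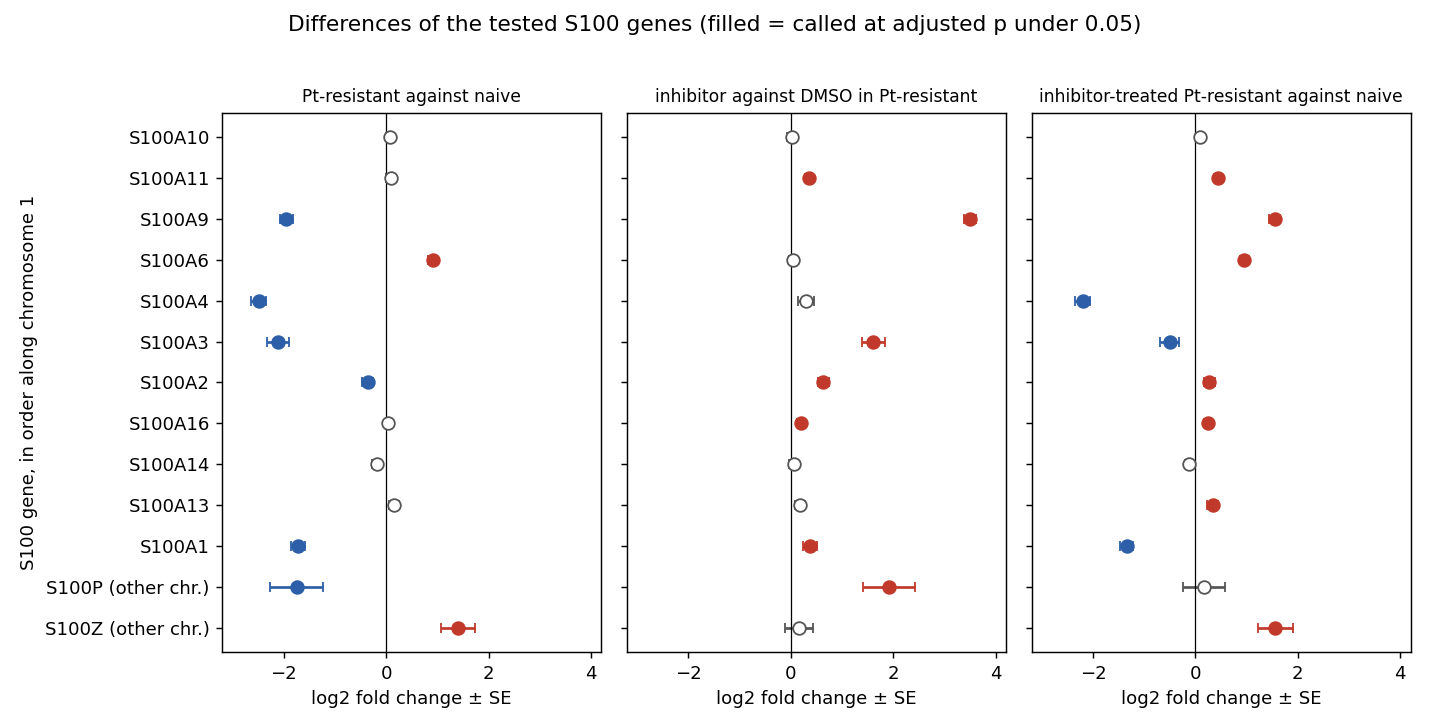
Log2 fold change with its standard error (x axis) for the 13 tested S100 genes (y axis, in order along chromosome 1, then S100P and S100Z of other chromosomes) in the 3 comparisons, where filled points were called, red higher and blue lower. S100A9 lies at -1.95, 3.50 and 1.55 and S100A4 at -2.49, 0.29 and -2.20 from left to right, and S100A10 is open in all panels.

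S100A2 (ENSG00000196754) is a largely nuclear S100 protein of basal epithelium that binds p53. Its levels were 31.1, 25.9 and 33.5 CPM in inhibitor-treated libraries, 19.4, 20.02 and 19.01 CPM in Pt-resistant libraries and 27.2, 22.3 and 25.5 CPM in naive libraries. The Pt-resistant libraries were the lowest and close to each other, and treated and naive libraries overlapped. With the inhibitor S100A2 was 1.55-fold higher (log2 fold change 0.63 ± 0.10, adjusted p = 1.36e-05), and in Pt-resistant against naive cells it was 1.29-fold lower (log2 fold change -0.36 ± 0.11, adjusted p = 0.00517). Against naive cells treated cells were 1.21-fold higher (adjusted p = 0.0254). That call was lost with library size alone as scaling, with DESeq2, and without naive replicate 2, treated replicate 1 or treated replicate 3 (adjusted p = 0.0615 to 0.154).

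S100P (ENSG00000163993) encodes a protein first found in placenta that binds ezrin and is raised in many carcinomas. It was low throughout, at 0.651, 0.802 and 1.49 CPM in inhibitor-treated libraries, 0.120, 0.266 and 0.364 CPM in Pt-resistant libraries and 0.568, 0.687 and 1.39 CPM in naive libraries. The sums were 48, 14 and 42 counts over the treated, Pt-resistant and naive groups. S100P passed the filter on low counts only through the treated and naive libraries, and its calls below are conditional on that. It was not tested under a filter of 1 CPM in 3 libraries, nor in a fit on the Pt-resistant and naive libraries alone. All Pt-resistant libraries lay below the others. S100P was 3.78-fold higher with the inhibitor (log2 fold change 1.92 ± 0.50, adjusted p = 0.00207) and 3.36-fold lower in Pt-resistant than in naive cells (log2 fold change -1.75 ± 0.52, adjusted p = 0.00559). The call against naive cells rested on the naive library with the highest level, and without naive replicate 3 the log2 fold change was -1.26 (adjusted p = 0.0724). Treated and naive cells overlapped, at a log2 fold change of 0.17 ± 0.41 (adjusted p = 0.735).

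S100A10 and S100A11 are the annexin-binding members. S100A10 (ENSG00000197747), a member that has lost calcium binding and is held in an active form, forms a complex with ANXA2 at the membrane that takes part in plasminogen activation. It had 159.0, 143.4 and 145.4 CPM in inhibitor-treated, 155.5, 154.3 and 133.6 CPM in Pt-resistant and 153.9, 131.3 and 135.3 CPM in naive libraries. The groups overlapped in each comparison, and its log2 fold changes of 0.076 ± 0.083, 0.015 ± 0.083 and 0.091 ± 0.084 did not pass (Pt-resistant against naive, inhibitor against DMSO, and treated against naive, adjusted p = 0.45, 0.892 and 0.354). S100A11 (ENSG00000163191), a partner of ANXA1, had 402.3, 376.7 and 336.9 CPM in inhibitor-treated, 298.5, 297.1 and 275.0 CPM in Pt-resistant and 292.0, 262.3 and 265.8 CPM in naive libraries. Treated libraries lay above all others, by 1.28-fold over DMSO (log2 fold change 0.36 ± 0.080, adjusted p = 4.55e-04) and by 1.36-fold over naive cells (log2 fold change 0.44 ± 0.080, adjusted p = 3.96e-05). Pt-resistant and naive cells overlapped (log2 fold change 0.086 ± 0.080, adjusted p = 0.369). S100A11 has processed pseudogenes elsewhere in the genome and, like S100A6, an antisense locus on the opposite strand in GENCODE 29. Reads matching several places are left out of such counts, and the sources used here do not name the strand setting.

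S100A14 and S100A16 lie next to each other in the cluster and are the most abundant members by counts. S100A14 (ENSG00000189334), largely restricted to epithelia, had 553.2, 512.4 and 550.4 CPM in inhibitor-treated, 477.9, 560.6 and 513.1 CPM in Pt-resistant and 656.5, 529.3 and 578.1 CPM in naive libraries. It overlapped between the groups in every comparison. Its log2 fold change in Pt-resistant against naive cells was -0.19 ± 0.085 (adjusted p = 0.0655), which passed in 4 of 17 alternatives (adjusted p = 0.0144 to 0.355), while those with the inhibitor and against naive cells were 0.059 ± 0.085 and -0.13 ± 0.085 (adjusted p = 0.564 and 0.201). S100A16 (ENSG00000188643), expressed in a wide range of tissues, had 576.3, 527.1 and 528.6 CPM in inhibitor-treated, 504.7, 457.6 and 467.3 CPM in Pt-resistant and 478.0, 439.6 and 468.1 CPM in naive libraries. It was 1.14-fold higher with the inhibitor (log2 fold change 0.19 ± 0.076, adjusted p = 0.0311) and 1.18-fold higher in treated than in naive cells (log2 fold change 0.24 ± 0.076, adjusted p = 0.00898). The call with the inhibitor was lost in 5 of 17 alternatives (adjusted p = 0.0543 to 0.141), and that against naive cells without naive replicate 2 or treated replicate 1 (adjusted p = 0.0541 and 0.0538). In Pt-resistant against naive cells its log2 fold change was 0.045 ± 0.076 (adjusted p = 0.631).

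Among the other S100 genes, S100A1, known from heart and skeletal muscle, had 15.7, 14.8 and 13.4 CPM in inhibitor-treated, 12.3, 11.98 and 9.66 CPM in Pt-resistant and 45.05, 29.5 and 36.9 CPM in naive libraries. Like S100A4 it was lower in Pt-resistant cells (log2 fold change -1.72 ± 0.13, adjusted p = 9.23e-11) and remained lower in treated than in naive cells (log2 fold change -1.35 ± 0.13, adjusted p = 3.15e-09). Its rise with the inhibitor (log2 fold change 0.37 ± 0.14, adjusted p = 0.0237) was lost without Pt-resistant replicate 3, treated replicate 1 or treated replicate 2 (adjusted p = 0.0548 to 0.140). S100A13, which takes part in the release of FGF1, overlaps S100A1 on the opposite strand and averaged 143.8 CPM in treated, 127.6 CPM in Pt-resistant and 114.1 CPM in naive cells. S100A13 passed in treated against naive cells alone (log2 fold change 0.33 ± 0.10, adjusted p = 0.00542), where the libraries overlapped. S100Z, on chromosome 5, was higher in Pt-resistant than in naive cells (log2 fold change 1.40 ± 0.33, adjusted p = 9.53e-04), with 103, 103 and 34 counts over the treated, Pt-resistant and naive groups. It passed the filter on low counts through the Pt-resistant libraries, treated or not, where it was high, and naive replicate 3 had 8 counts. That call is conditional on this. S100A7, S100A7A, S100B and S100G had no more than 7 counts in any group, and S100A7L2 was at 0 in every library.

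The summed level of the members was highest in treated libraries. The 10 members together reached 1997 to 2221 CPM in inhibitor-treated, 1768 to 1855 CPM in Pt-resistant and 1635 to 1929 CPM in naive libraries. Treated libraries lay above all others, and Pt-resistant and naive libraries overlapped. The make-up of this sum differed too. S100A9 was 4.52 ± 0.40% of it in treated, 0.464 ± 0.039% in Pt-resistant and 1.82 ± 0.20% in naive cells (SD, n = 3). S100A4 made up 0.873 ± 0.17% in treated, 0.831 ± 0.14% in Pt-resistant and 4.70 ± 0.62% in naive cells. The share of S100A6 was 16.6 ± 0.92% in treated, 18.6 ± 0.42% in Pt-resistant and 10.1 ± 0.67% in naive cells, and that of S100A14 was 25.7 ± 0.83%, 28.5 ± 2.0% and 32.9 ± 1.0% in the same groups. S100A14, S100A16, S100A11, S100A6 and S100A10 made up most of the sum in every library.

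**Figure D3:**
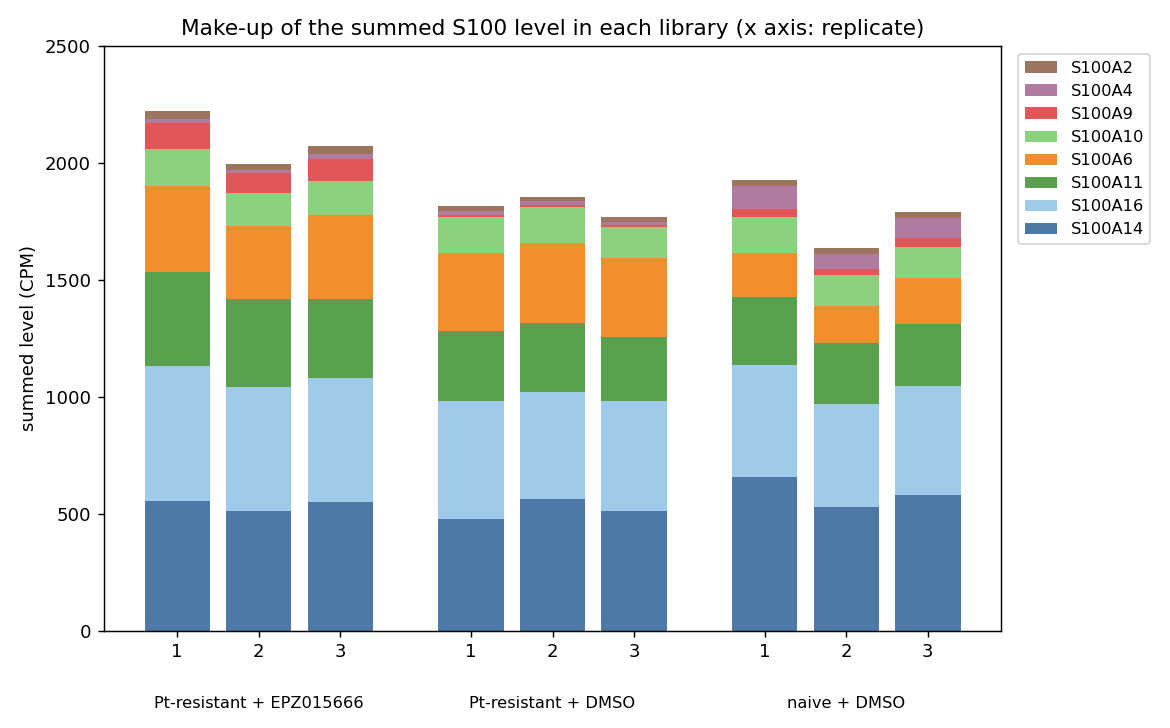
Summed level in CPM (y axis, from 0) of 8 members in each library (x axis: replicates within Pt-resistant with EPZ015666, Pt-resistant with DMSO and naive with DMSO), stacked by gene without S100A8 and S100P, which are both under 1.5 CPM. The red layer of S100A9 is 4.52% of the sum on average in treated and 0.464% in Pt-resistant libraries, and the purple layer of S100A4 is 4.70% in naive libraries.

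Levels of different genes were compared per length, in TPM, counts divided by the length of the principal transcript in GENCODE 29 and scaled to a common total over 8875 protein-coding genes. In treated cells the order was S100A11 at 1512 ± 109 TPM, S100A16 at 1389 ± 47 TPM, S100A14 at 1270 ± 52 TPM, S100A6 at 1265 ± 107 TPM, S100A10 at 585.5 ± 24 TPM, S100A9 at 398 ± 51 TPM, S100A2 at 161 ± 22 TPM, S100A4 at 83.5 ± 18 TPM and S100P at 1.86 ± 0.88 TPM. S100A11 and S100A16 overlapped in range, as did S100A14 and S100A6. In Pt-resistant cells S100A6 at 1329 ± 18 TPM, S100A14 at 1320 ± 78 TPM, S100A16 at 1320 ± 93 TPM and S100A11 at 1279 ± 53 TPM were level within their spread. Below them came S100A10 at 628 ± 48 TPM, S100A2 at 112.5 ± 1.0 TPM, S100A4 at 74.4 ± 13 TPM, S100A9 at 38.1 ± 2.7 TPM and S100P at 0.512 ± 0.25 TPM. In naive cells S100A14 at 1471 ± 184 TPM, S100A16 at 1251 ± 66 TPM and S100A11 at 1180 ± 96 TPM led. S100A14 lay above S100A16, whose range overlapped that of S100A11. S100A6 at 691.5 ± 72 TPM and S100A10 at 583 ± 62 TPM, which overlapped, followed, then S100A4 at 408 ± 88 TPM, S100A9 at 144 ± 18 TPM and S100A2 at 141 ± 15 TPM, a pair within its spread, and S100P at 1.75 ± 0.82 TPM. Of S100A9 the level per length was above 95.7% of these coding genes in treated, 59.3% in Pt-resistant and 86.5% in naive cells. Dividing by all exons of a gene changed these orders. It put S100A11 first in Pt-resistant cells, at 1591 TPM, against 1510 TPM for S100A14. S100A2, at 46.3 TPM, then lay below S100A4 and S100A9 there, at 54.8 and 54.3 TPM. In treated cells S100A9, at 553.9 TPM, passed S100A10, at 325.2 TPM. In naive cells S100A9, at 200.5 TPM, lay well above S100A2, at 56.95 TPM. That length was known for 12666 coding genes, and the common total was then taken over these, so TPM values moved with the gene set too. Among them S100A9, 577 nt by either length, was above 98.6% in treated, 73.9% in Pt-resistant and 94.3% in naive cells.

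**Figure D4:**
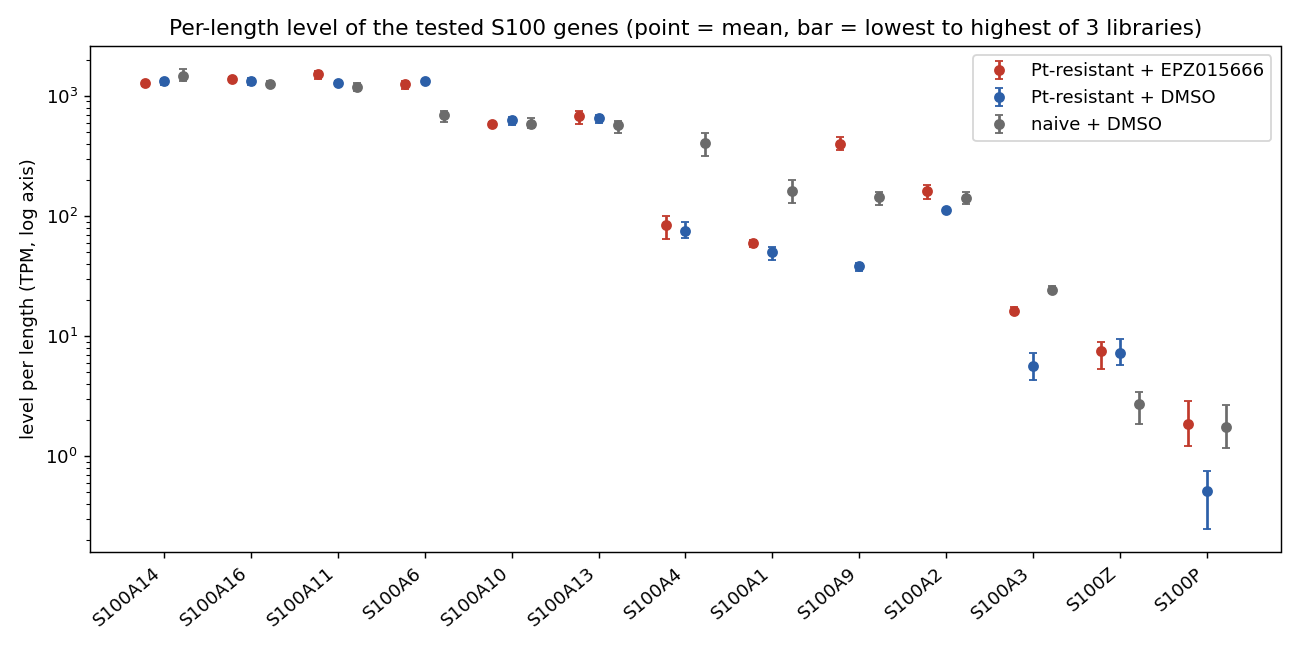
Level per length in TPM (log y axis) of the 13 tested S100 genes (x axis, in their order in naive cells) in Pt-resistant cells with EPZ015666 (red), Pt-resistant cells with DMSO (blue) and naive cells (grey), where points are means and bars run from the lowest to the highest of 3 libraries. S100A9 spans 398, 38.1 and 144 TPM and S100A4 83.5, 74.4 and 408 TPM in these groups.

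The genes whose log2 CPM ran most like that of a member over the 9 libraries differed between members. For S100A9 they were AKAP5 (Pearson r = 0.9969), LMO7 (0.9964) and TLCD4 (0.9954), all lowest in Pt-resistant cells. AKAP5 averaged 26.1 CPM in treated, 4.96 CPM in Pt-resistant and 12.3 CPM in naive cells. For S100A6 they were CDKN2A (0.9983), GABARAPL2 (0.9913) and SF3B5 (0.9899). CDKN2A, which encodes the cell cycle inhibitor p16, averaged 359.8 CPM in treated, 356.1 CPM in Pt-resistant and 173.3 CPM in naive cells, close to S100A6 in level too. For S100A4 they were AGAP3 (0.9917), MAZ (0.9915) and PRKCD (0.9911), for S100A2 PTOV1 (0.9866), PHF13 (0.9849) and ANAPC4 (0.9715), and for S100A11 TBL1XR1 (0.983), PRKAG2 (0.9743) and EXOSC5 (0.9702). S100A16 ran most like PRKAG2 (0.9616), DGUOK (0.9502) and IFITM2 (0.9462), and S100P most like FKBP7 (0.9672), USP44 (0.964) and CALU (0.9515). S100A10 and S100A14, which were called in no comparison, had RTN3 (0.9192), HHLA3 (0.9045) and TAX1BP3 (0.8773), and PTDSS2 (0.9416), CEP76 (0.9367) and MICOS13 (0.9271). With 9 libraries in 3 groups, these values largely restate the order of the group means.

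Of the 22 listed binding partners and receptors of S100 proteins, 19 were tested. In Pt-resistant against naive cells 8 were higher and 5 lower, with the inhibitor 13 were higher and 3 lower, and in treated against naive cells 11 were higher and 3 lower. Over all genes, 29.8% were called higher and 29.4% lower, 31.9% higher and 30.5% lower, and 32.2% higher and 31.2% lower in these comparisons, and the counts of this list and of the lists that follow are to be read beside these shares. The median log2 fold changes of the partners were -0.015, 0.40 and 0.49 in that order. AGER, the receptor RAGE, had 3, 11 and 12 counts over the treated, Pt-resistant and naive groups, and TLR4 had 0, 0 and 1 counts, so these receptors of S100A8 and S100A9 were too low to test. BSG, the receptor CD147, which S100A9 also binds, was abundant, at 539.4 ± 22 CPM in treated, 366.3 ± 4.1 CPM in Pt-resistant and 303.4 ± 9.7 CPM in naive cells, and was called higher in each comparison (log2 fold changes 0.27, 0.56 and 0.83 in the order above). ALCAM, a cell adhesion molecule on the same list, was called higher in Pt-resistant against naive cells (log2 fold change 0.42 ± 0.076, adjusted p = 4.94e-05) and lower with the inhibitor (-0.54 ± 0.076, adjusted p = 1.51e-06). ANXA2, the partner of S100A10, averaged 863 ± 60 CPM in treated, 650.1 ± 25 CPM in Pt-resistant and 538 ± 32 CPM in naive cells and was called higher in each comparison (log2 fold changes 0.27, 0.41 and 0.68 in the order above). ANXA1, the partner of S100A11, was 1203 CPM in Pt-resistant against 391.6 CPM in naive cells (log2 fold change 1.62 ± 0.098, adjusted p = 1.62e-12). With the inhibitor, where S100A11 rose, ANXA1 was called lower (log2 fold change -0.23 ± 0.095, adjusted p = 0.0415), with libraries that overlapped. MYH9, the myosin that S100A4 binds, fell with S100A4 in Pt-resistant cells (log2 fold change -0.57 ± 0.097, adjusted p = 2.44e-05) and rose with the inhibitor (0.40 ± 0.097, adjusted p = 9.92e-04). MYH10, its paralog, was 74.4 CPM in Pt-resistant against 169.5 CPM in naive cells. CACYBP, the partner of S100A6, averaged 230 ± 6.9 CPM in treated, 141 ± 26 CPM in Pt-resistant and 149 ± 16 CPM in naive cells, and rose with the inhibitor (log2 fold change 0.70 ± 0.10, adjusted p = 2.09e-06), where S100A6 did not pass. EZR, the ezrin bound by S100P, was 732 CPM in treated against 340.1 CPM in naive cells. S100PBP, which binds S100P, was lower in Pt-resistant than in naive cells (log2 fold change -0.29 ± 0.093, adjusted p = 0.00996). NEDD4, a ubiquitin ligase, was 185.3 CPM in Pt-resistant against 65.6 CPM in naive cells, and 77.0 CPM with the inhibitor against 185.3 CPM under DMSO.

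Of 12 annexins, the calcium-dependent membrane-binding proteins that several members grip, 9 were tested. There were 4 higher and 1 lower in Pt-resistant against naive cells, 5 higher and 3 lower with the inhibitor, and 5 higher and 2 lower in treated against naive cells. ANXA6 was 210.7 CPM with the inhibitor against 86.0 CPM under DMSO (log2 fold change 1.29 ± 0.079, adjusted p = 1.62e-12), and ANXA9 was 8.51 CPM with the inhibitor against 35.0 CPM under DMSO (log2 fold change -2.04 ± 0.12, adjusted p = 6.88e-13). ANXA5, widely used to stain apoptotic cells, was 297.9 CPM in Pt-resistant against 143.6 CPM in naive cells.

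Of 26 other EF-hand genes, 23 were tested, with 3 higher and 8 lower in Pt-resistant against naive cells, 11 higher and 1 lower with the inhibitor, and 14 higher and 4 lower in treated against naive cells. RCN3, a calcium-binding protein of the secretory pathway, was 19.2 CPM with the inhibitor against 2.71 CPM under DMSO (log2 fold change 2.81 ± 0.18, adjusted p = 5.93e-12). In Pt-resistant against naive cells RCN3 was lower (log2 fold change -1.83 ± 0.20, adjusted p = 2.86e-08), the directions that S100A9 also showed. SPARC, a secreted matrix glycoprotein, was 70.2 CPM with the inhibitor against 21.04 CPM under DMSO. CALM3, 1 of the calmodulin genes, was 264.5 CPM with the inhibitor against 120.3 CPM under DMSO.

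Of 28 non-S100 genes around the cluster on chromosome 1, 18 were tested, with 3 higher and 9 lower in Pt-resistant against naive cells, 6 higher and 4 lower with the inhibitor, and 2 higher and 8 lower in treated against naive cells. Their median log2 fold changes were -0.23, -0.056 and -0.37. TUFT1 was 184.0 CPM in Pt-resistant against 78.5 CPM in naive cells, where its libraries ran from 55.4 to 121.1 CPM. THEM4 was 11.3 CPM in treated against 27.6 CPM in naive cells. The calls of these neighbours thus leaned lower in both comparisons with naive cells, and not with the inhibitor. Within the cluster, S100A6 and S100A4 moved in opposite directions in Pt-resistant against naive cells.

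Libraries of the same group differed along the members together. Naive replicate 2 was the lowest naive library for 8 of 9 tested members and treated replicate 2 the lowest treated library for 7 of 9, at a median of -0.16 and -0.15 below their group means on the log2 scale. The members have short transcripts, and the other 1229 tested protein-coding genes with principal transcripts of at most 1279 nt deviated by a median of -0.066 in naive replicate 2 and -0.069 in treated replicate 2, where longer genes deviated by 0.004 and 0.007. Between groups these short genes had median log2 fold changes of 0.047 in Pt-resistant against naive cells, 0.038 with the inhibitor and 0.093 in treated against naive cells. These values are small beside the differences of S100A9, S100A4 and S100A6 and of the same order as those of S100A10 and S100A16 that did not pass. In treated against naive cells the 0.093 of the short genes stood beside called values of 0.24 for S100A16 and 0.27 for S100A2. Both calls were lost without naive replicate 2. The part of these shifts of short genes in any member's difference was not tested.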

How the data were processed

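RNA was read in 9 libraries of OVCAR4 cells in 3 groups of 3. According to the methods of the study, libraries were made with a directional kit, read quality was assessed with FastQC, reads were aligned by STAR in its gene counting mode, and a count matrix was assembled. The deposited values are raw counts per gene made by the authors, whole numbers without normalisation. In that mode STAR drops multi-mapping reads and those lying in more than 1 gene. The sources used here name no genome build, annotation or strand column for the counts.

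Counts were fitted in R 4.3.3 with edgeR 4.0.16 in a single quasi-likelihood model over the 9 libraries without covariates, after filterByExpr (minimum count 10; 14630 genes with 99.88% of counts) and TMM scaling, with Benjamini-Hochberg adjustment over all genes tested and a threshold of 0.05. The biological coefficient of variation was 7.66%. CPM use the TMM-scaled totals. The standard error is the log2 fold change over the root of the F statistic. Symbols came from a table of gene names (61369 of 61487 IDs matched), and lengths and overlaps from GENCODE 29, which may not be the annotation used for counting. Totals of 14320929 to 19114811 counts limit the precision. The exact Poisson interval and the floor of 3 counts cover counting error only.

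The members and the gene lists were chosen with earlier results of these data known, so no set test and no p adjusted over a list was computed. Named genes are all members and other S100 genes with a count, list members called with an absolute log2 fold change of at least 1 and a mean of at least 5 CPM in the higher group (at most 5 in each direction, not all of them described), partners of single members, and for each tested member the 3 genes with the highest correlation. BSG, ALCAM and the single immune, squamous, serous and epithelial markers outside that rule were chosen after their values were seen. Alternatives were scaling by RLE (the DESeq2 size factors) or library size alone, DESeq2 1.42.0, limma-voom (limma 3.58.1), other filters, a fit restricted to the compared groups, a block on the replicate number, and each library left out in turn.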

Additional observations from a re-analysis of the deposited data

How the results depend on the processing

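Over 17 alternatives, the calls of S100A9 in all 3 comparisons, of S100A4 and S100A6 in Pt-resistant and in treated against naive cells, of S100A2 in Pt-resistant against naive cells and with the inhibitor, and of S100A11 with the inhibitor and in treated against naive cells kept their direction and their side of the threshold. Leaving out each library in turn gave log2 fold changes of S100A9 of -2.06 to -1.85, 3.38 to 3.58 and 1.43 to 1.64. The count of members called lower in Pt-resistant against naive cells was then 3 to 5, that called higher with the inhibitor 4 to 6, and that called higher in treated against naive cells 3 to 5, with 3 both without naive replicate 2 and without treated replicate 1, where the calls of S100A2 and S100A16 were lost. No called fold change of an S100 gene changed sign. Of the single S100 fold changes under an alternative, 629 kept their side of the threshold, 20 lost a call and 10 gained one. S100A3 in treated against naive cells lost its call with DESeq2 (adjusted p = 0.0776) and without naive replicate 3, treated replicate 1 or treated replicate 2 (adjusted p = 0.0525 to 0.0865), and the cause of these losses was not tested. Deviations of same-numbered libraries from their group means correlated at -0.0758 to 0.0995 over 9 pairs, and those of other-numbered libraries at -0.112 to 0.0785 over 18 pairs. These values show no pairing by number, but they cannot exclude one, since each mean rests on 3 libraries. With the replicate block, the counts of members called were 1 higher and 4 lower, 5 higher and 0 lower, and 5 higher and 1 lower in the 3 comparisons, as without it, and 4389 and 4299, 4677 and 4508, and 4730 and 4589 genes were called higher and lower over the table. Per-length levels depend on the length used and on the coding genes that have it, 8875 or 12666, over which the total is taken. Dividing by all exons of a gene, a choice made after seeing the data, moved 32 of 39 by more than their spread. S100A9, 577 nt by either length, went from 398 to 553.9 TPM in treated cells, a move that came from the common total and not from its own length. S100P, with 14 to 48 counts a group, and S100A8, with 0 to 4, are limited by depth. S100P did not pass the filter of 1 CPM in 3 libraries, nor that of the fit on Pt-resistant and naive libraries alone, so these alternatives gave no value for it.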
